A study of Homo sapiens with 3 samples.

Results

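KKU-213, an established cell line of human intrahepatic cholangiocarcinoma, which arises from bile ducts within the liver, was compared at 25 mM and at 5.6 mM glucose. The comparison uses 2 of the 3 libraries of the series. HG is KKU-213 kept in DMEM with 25 mM glucose, and NG is KKU-213 kept in DMEM with 5.6 mM glucose. Both carried the same medium supplements, 10% fetal bovine serum among them, and the labels put each culture past passage 5. The remaining library, L5, is the subline KKU-213L5 at 25 mM glucose, and its values are given beside a gene only for reference. Poly-A RNA of confluent cells was sequenced as strand-specific libraries, with 1 library for each culture. A gene entered when its FPKM estimate (fragment counts scaled to transcript length and library size) had the status OK in HG and in NG and reached 1 FPKM in at least 1 of them. That left 13608 of 58892 gene IDs, of which 386 reached 1 FPKM in HG but not in NG and 768 in NG but not in HG. A further 732 IDs had a status other than OK and were not measured, among them the transferrin receptor TFRC, listed at 0 with a failed estimate in HG.

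Each difference below is the log2 ratio of FPKM + 1, HG over NG, and a ratio of at least 1 in size is called past 2-fold. The error after ± is the counting standard error from the deposited FPKM interval. It does not cover the spread between cultures, which 1 library a side cannot give, so no p-value is attached to any difference. HG and NG were separate cultures, and the glucose concentration and anything else that set these cultures apart cannot be told apart. Likewise, in a bulk library fewer cells of a kind and less RNA per cell cannot be told apart.

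Cells sense glucose in part through MondoA and ChREBP, transcription factors that glucose phosphates activate and that bind a carbohydrate response element, a spaced pair of E-box-like sites. TXNIP, a brake on glucose uptake, is their best known target. Bile duct cells are simple epithelium with the keratins KRT7, KRT8, KRT18 and KRT19. Squamous epithelium, which lines the skin and mouth, carries instead KRT5 and KRT14 in its basal layer under the transcription factor p63, and S100 proteins, small proline-rich proteins and kallikreins in its upper layers.

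The glucose element is shown first because it was searched in sequence alone, without regard to the values of the genes. A match is a run of letters, and whether a gene responds to glucose through it was not tested. It was searched as CACGNG, 5 free bases and CACGNG again, on both strands and 17 letters long, in the 250 bases before each RefSeq gene start (GRCh38.p14). Of 27305 genes with such a window, 16 (0.0586%) held it, and so did 12 of the 9576 measured genes whose window was found (0.125%). It was in 0 of 121 genes past 2-fold higher in HG with a window and in 0 of 257 lower ones. In the sequences below the capitals mark the fixed letters of the element.
TXNIP: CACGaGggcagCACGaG
P4HA1: CACGgGccggcCACGgG
GFPT1: CACGcGccgctCACGcG
ATP5ME: CACGtGaggcgCACGcG
RAN: CACGcGcgggcCACGtG
The TXNIP element lies at chr1:145996651-145996667 on the minus strand, 88 bases before the start. The whole TXNIP window, chr1:145996580-145996829 on the minus strand, reads as follows, with the element in capitals.
TXNIP window: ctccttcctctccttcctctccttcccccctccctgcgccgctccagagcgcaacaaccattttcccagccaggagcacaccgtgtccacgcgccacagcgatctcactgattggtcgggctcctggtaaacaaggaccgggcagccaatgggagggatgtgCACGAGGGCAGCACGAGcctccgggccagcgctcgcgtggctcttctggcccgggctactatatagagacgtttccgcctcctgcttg

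TXNIP was listed at 11.3 FPKM in HG and 11.3 FPKM in NG, a log2 ratio of 0.01 ± 0.06, and at 15.96 FPKM in L5. Its arrestin relative ARRDC4, another MondoA target, had 1.84 FPKM in HG and 1.23 FPKM in NG (0.35 ± 0.08). ARRDC4 was not among the genes found with the element, so the search missed a known target. P4HA1, a subunit of the collagen prolyl hydroxylase, had 36.0 FPKM in HG and 23.4 FPKM in NG (0.60 ± 0.04), the largest ratio in size among the 12 measured genes with the element. GFPT1, which opens the hexosamine pathway, had 18.9 FPKM in HG and 23.0 FPKM in NG (-0.27 ± 0.04). The ATP synthase subunit ATP5ME, under its older symbol ATP5I in the files, had 89.3 FPKM in HG and 115 FPKM in NG (-0.36 ± 0.10). Its match also lies in the window of MYL5 on the opposite strand, so the same stretch counts for both genes. RAN, the GTPase of nuclear transport, had 801 FPKM in HG and 874 FPKM in NG (-0.13 ± 0.02). In all, 2 of the 12 lay above 0 and 10 below, with a median of -0.10 beside -0.09 over all measured genes.

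Shorter motifs were counted in the same windows on both strands. The AP-1 motif TGANTCA, bound by the FOS and JUN proteins, was in 16 of the 121 genes higher in HG (13.2%), 27 of the 257 lower ones (10.5%) and 592 of the 9576 measured genes (6.18%). The E box CACGTG, which can be part of the glucose element, was in 8.26% of the higher, 7.39% of the lower and 11.2% of the measured genes. Over all 27305 genes with a window, AP-1 was in 8.06% and the E box in 7.73%. Windows of genes past 2-fold in either direction thus held the AP-1 letters more often than either set. They held the E box less often than measured genes, but near its share over all windows. These shares describe the windows alone.

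Of the 13608 genes, 656 (4.82%) were past 2-fold, 221 (1.62%) higher and 435 (3.2%) lower in HG. At 4-fold there were 47 higher (0.345%) and 65 lower (0.478%). Most genes differed little, as 79.5% lay within 0.5 of 0 and the quartiles of the log2 ratio were -0.32 and 0.13. The deposited FPKM intervals of HG and NG were separate for 556 of the 656, 178 higher and 378 lower. Separation was judged on the intervals as deposited, which held the gene's own FPKM for 85.8% of measured genes in HG and 87.5% in NG. Lower calls outnumbered higher ones at every level up to 100 FPKM, with 72 higher and 148 lower among 4778 genes that peaked at 5 to 20 FPKM, and 20 higher and 17 lower among the 948 at 100 FPKM or more. Scaling moved this balance: with FPKM scaled to the same sum in each library 45.1% of the calls were higher in HG, against 33.7% as deposited, and with the spike-in RNA set equal 10.3% were. Of 778 long noncoding genes, 20 were higher (2.57%) and 63 lower (8.10%), with a median of -0.25. Protein-coding genes held 146 higher and 296 lower of 11110. The 82 genes of other annotated types, pseudogenes aside, held 20 higher (24.4%) and 29 lower (35.4%). Short genes weighed on the count. Without the 227 genes whose longest isoform was under 300 nt, 560 of 13381 were past 2-fold, 176 higher and 384 lower. By the coverage columns the libraries held 76.0 M fragments in HG and 47.1 M in NG, and 12844 genes reached 1 FPKM in HG and 13238 in NG.

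**Figure D1:**
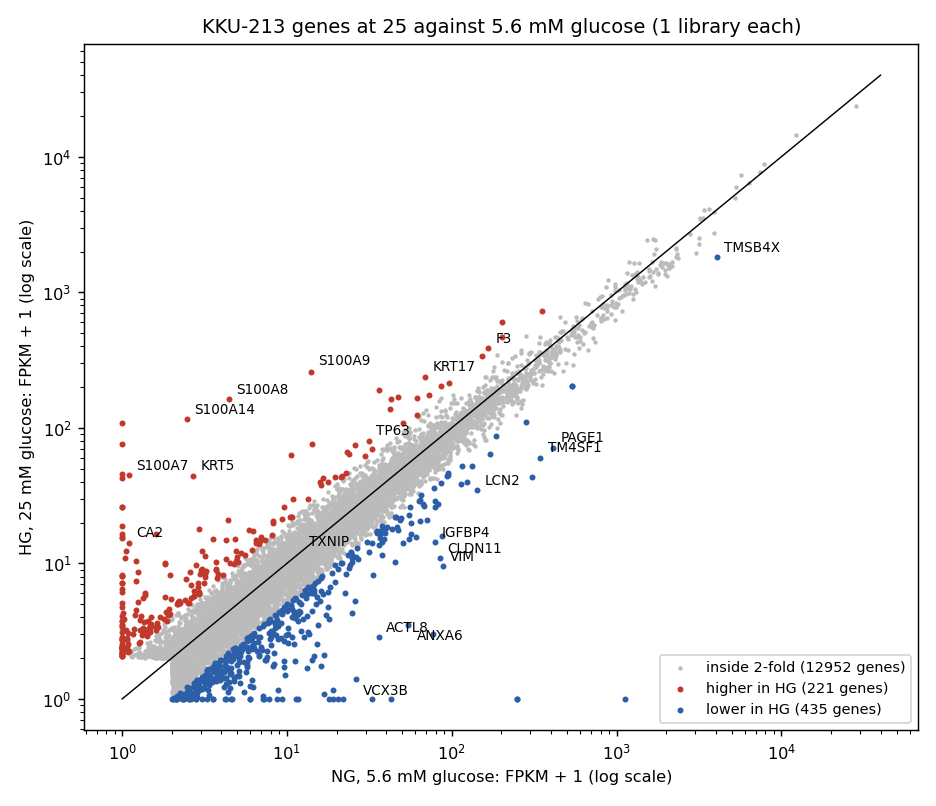
FPKM + 1 of each measured gene in HG (vertical, log scale) against NG (horizontal, log scale), 1 library each, with the line of equal values. Red points are the 221 genes past 2-fold higher in HG, blue points the 435 lower, and TXNIP lies on the line.

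Biliary keratins were abundant at both concentrations. Of 20 cholangiocyte markers found, 12 reached 1 FPKM in HG and 11 in NG, with summed levels of 2439 FPKM in HG and 2535 FPKM in NG, KRT7 at 784 FPKM in HG and 992 FPKM in NG. Single markers differed more than these sums. Of 12 measured, 2 were past 2-fold higher and 2 lower (16.7% each), beside 1.62% and 3.2% of all genes. Of the 2 higher, 1 was measured through HG alone. Markers of other cells stayed low, and their part in any difference was not tested. Hepatocyte markers reached 1 FPKM for 1 of 21 in HG and 2 in NG, with summed levels of 28.4 FPKM in HG and 80.3 FPKM in NG, nearly all of it SERPINA1, and 9 were listed at 0 in both. Fibroblast markers reached it for 1 of 14 in each (summed 3.96 FPKM in HG and 9.49 FPKM in NG), leukocyte markers for 2 of 11 in HG and 1 in NG (summed 17.4 FPKM in HG and 13.98 FPKM in NG), and endothelial markers for 0 of 5 in either.

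Counts over gene lists are given from here on beside 1.62% of all genes past 2-fold higher, 3.2% lower and 8355 of 13608 below 0. A gene that reached 1 FPKM in 1 library alone was measured through the side where it is high, so counts over lists with such genes describe the measured members and support nothing. The lists were also chosen with earlier results of these data known. A list's share beside that of all genes therefore describes the listed genes and is no test of enrichment.

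Of 26 keratins listed, 12 were measured and 14 stayed under 1 FPKM in both libraries. Past 2-fold were 5 of the 12, keratins of stratified epithelium and all higher in HG, beside 1.62% of all genes. KRT6A, KRT14 and KRT16 were measured through HG alone. The median of the measured keratins was 0.77, or 0.13 with no filter on FPKM. KRT5, the basal layer type II keratin, had 43.3 FPKM in HG and 1.71 FPKM in NG, a log2 ratio of 4.03 ± 0.11. KRT6A, a keratin of activated and wounded squamous cells (chromosome 12, 52880958 to 52887041 on GRCh37), had 15.4 FPKM in HG and 0.593 FPKM in NG (3.37 ± 0.13). KRT14, the basal layer partner of KRT5, had 7.70 FPKM in HG and 0.252 FPKM in NG (2.80 ± 0.13). All 3 were under 2 FPKM in NG, so their ratios depend on the pseudocount. KRT17, induced in injured and hyperproliferative epithelium (chromosome 17, 39775689 to 39781094), was well expressed on both sides, with 237 FPKM in HG and 68.05 FPKM in NG (1.79 ± 0.03). KRT15, another basal keratin, had 14.1 FPKM in HG and 3.86 FPKM in NG (1.64 ± 0.13).

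Among the simple keratins KRT19 had 477 FPKM in HG and 280 FPKM in NG (0.77 ± 0.02). KRT7, KRT8 and KRT18 lay a little lower in HG, at -0.34, -0.14 and -0.39. Outside that group, KRT80 had 21.1 FPKM in HG and 31.9 FPKM in NG (-0.57 ± 0.04). All of these are inside 2-fold, as was KRT16 of wounded epithelium at 0.78. The subline L5 also stood above NG for the 5 called keratins, with 270 FPKM of KRT5 and 301 FPKM of KRT17. These keratins were called against the same NG library, so nothing is read from that. Keratin genes have near-identical pseudogenes, and the way shared reads were split is not given in the sources used here.

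Of 36 squamous layer genes listed, 20 were measured, and 7 of these (35%) were past 2-fold higher in HG and 0 lower, beside 1.62% and 3.2% of all genes. Through HG alone 4 of the 20 were measured, 2 of the 7 among them. Above 0 lay 18, beside 5253 of 13608 genes. The median was 0.64, or 0.17 with the spike-in RNA set equal, 0.28 with no filter on FPKM and 0.30 with a pseudocount of 5. TRIM29, a partner of p53 family proteins that marks squamous tumours (chromosome 11, 119981983 to 120056237), had 16.9 FPKM in HG and 1.91 FPKM in NG, a log2 ratio of 2.62 ± 0.12. TP63, the master regulator of the squamous lineage (chromosome 3, 189349205 to 189615068), had 79.3 FPKM in HG and 30.6 FPKM in NG (1.35 ± 0.03). The transcript that starts inside the gene, ENST00000354600, had 69.9 FPKM in HG and 25.5 FPKM in NG, 88.2% of the gene's isoform FPKM in HG and 83.4% in NG. The transcript from the outer start, ENST00000264731, had 1.13 FPKM in HG and 1.47 FPKM in NG; these transcripts were chosen after their values were seen. The inner start gives the form without the full transactivation domain, the usual form of basal squamous cells.

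SPRR1B, a cross-linked envelope protein, had 7.39 FPKM in HG and 1.97 FPKM in NG (1.50 ± 0.32). KLK8, a skin protease, had 7.73 FPKM in HG and 2.21 FPKM in NG (1.44 ± 0.23), and SCEL, the envelope protein sciellin, had 6.995 FPKM in HG and 2.17 FPKM in NG (1.33 ± 0.08). The errors of SPRR1B and KLK8 are wide, so their place past 2-fold is less sure than that of SCEL. In L5 the envelope protein SPRR1B reached 52.0 FPKM and TP63 73.6 FPKM.

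S100A14, S100A7 and S100A8, of a family of small calcium-binding proteins, had the 3 highest ratios among genes at 5 FPKM or more with separate intervals and an isoform of at least 300 nt. This order depends on the pseudocount. With 0.1, S100A8 stood at 5.51, below CA2 at 6.04, and with 5, S100A7 stood at 3.25, below S100A9 at 3.86. Of 20 S100 genes 14 were measured, 5 were higher past 2-fold and 1 lower, beside 1.62% and 3.2% of all genes, the median was -0.16 and the mean 1.20. S100A7 and S100A12, both among the 5, were measured through HG alone. S100A14, a protein of the epithelial membrane, had 115 FPKM in HG and 1.46 FPKM in NG (5.55 ± 0.16). S100A7, psoriasin (chromosome 1, 153430220 to 153433177), had 43.6 FPKM in HG and 0.104 FPKM in NG (5.34 ± 0.34). S100A8 had 162 FPKM in HG and 3.46 FPKM in NG (5.19 ± 0.17). Its calprotectin partner S100A9 (chromosome 1, 153330330 to 153333503) had 257 FPKM in HG and 13.0 FPKM in NG (4.20 ± 0.13). L5 shared 1 of these levels: it had 160 FPKM of S100A14, but 0.600 FPKM of S100A7, 2.07 FPKM of S100A8 and 5.01 FPKM of S100A9.

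S100A4, a metastasis-associated member, was the 1 lower past 2-fold, with 19.7 FPKM in HG and 69.9 FPKM in NG (-1.77 ± 0.08). S100A10, the annexin A2 partner, had 292 FPKM in HG and 546 FPKM in NG (-0.90 ± 0.03), and S100A6 stood at -0.57 ± 0.02. S100A2, a squamous member regulated by p63, was abundant and level, at 1674 FPKM in HG and 1639 FPKM in NG (0.03). Most S100 genes lie in 1 cluster on chromosome 1. In the stretch from S100A10 to S100A13, chr1:151955391-153606873 on GRCh37, 18 of 87 gene IDs were measured, the 14 measured S100 genes included. The 4 other measured genes there held 1 higher and 0 lower, with 2 above 0 and 2 below.

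**Figure D2:**
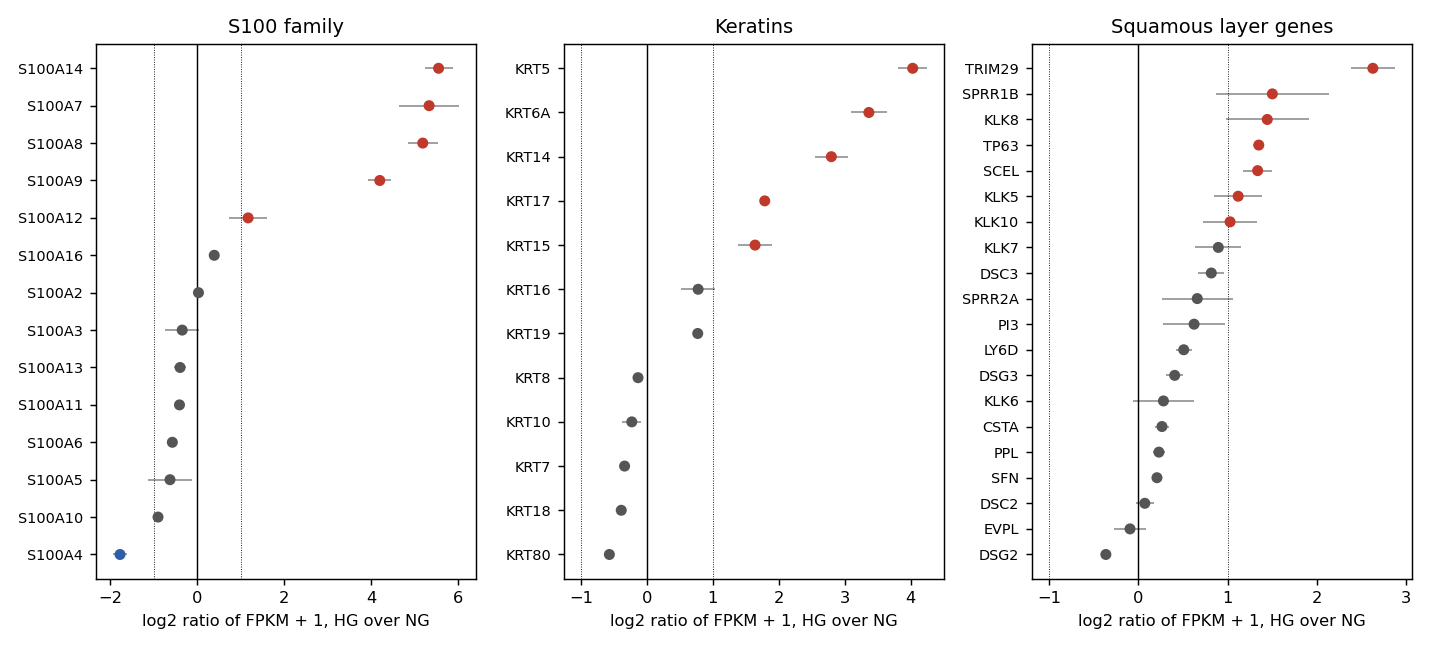
Log2 ratio of FPKM + 1, HG over NG, of each measured gene of the S100 family, the keratins and the squamous layer genes, with bars of 2 counting standard errors and dotted lines at 2-fold. S100A14 at 5.55 and KRT5 at 4.03 lead, S100A4 is the 1 gene past 2-fold lower, and the simple keratins KRT7, KRT8 and KRT18 lie just below 0.

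Beyond these families the genes with the highest ratios had mixed roles. CA2, the fast cytosolic carbonic anhydrase (chromosome 8, 86376081 to 86393722), had 13.2 FPKM in HG and 0.102 FPKM in NG, a log2 ratio of 3.69 ± 0.22. MGA, a MAX partner that represses transcription, had 6.38 FPKM in HG and 0.218 FPKM in NG (2.60 ± 0.10), with 5.95 FPKM in L5. CLCA2, a membrane protein of stratified epithelium, had 19.9 FPKM in HG and 3.37 FPKM in NG (2.26 ± 0.06). BCAM, a laminin receptor, had 8.92 FPKM in HG and 0.821 FPKM in NG (2.45 ± 0.13). FGFBP1, which releases stored fibroblast growth factors, had 168 FPKM in HG and 46.1 FPKM in NG (1.84 ± 0.04). DST, whose epithelial product anchors keratins at hemidesmosomes, had 137 FPKM in HG and 41.3 FPKM in NG (1.70 ± 0.04). Its gain lay mainly in ENST00000370765, at 70.0% of the gene's isoform FPKM in HG and 39.4% in NG, a transcript chosen after its values were seen. DST lies on chromosome 6, whose 628 genes had a median of 0.24. A short second gene ID of PA2G4 (ENSG00000257411) also ranked among them, with 25.1 FPKM in HG and 0.000862 FPKM in NG; it overlaps the main PA2G4 gene at 264 FPKM in HG and 253 FPKM in NG, and is uncertain for that reason.

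Genes among the 30 lowest ratios had mixed roles too, and the cancer-testis genes among them come after. ANXA6, a membrane-binding annexin of endosomes (chromosome 5, 150480273 to 150537443), had 2.50 FPKM in HG and 53.5 FPKM in NG, a log2 ratio of -3.96 ± 0.08. It was the 1 of 11 measured annexins past 2-fold; ANXA5 had 97.9 FPKM in HG and 188 FPKM in NG (-0.94 ± 0.02), and ANXA2 had 1224 FPKM in HG and 892 FPKM in NG (0.46 ± 0.01). VIM, the mesenchymal intermediate filament, had 8.55 FPKM in HG and 87.4 FPKM in NG (-3.21 ± 0.05). L5 differed from HG here, with 67.0 FPKM of VIM. TM4SF1, a tetraspanin-like surface protein of many carcinomas (chromosome 3, 149086809 to 149095652), had 59.4 FPKM in HG and 344 FPKM in NG (-2.51 ± 0.03). CLDN11, a tight junction claudin best known from myelin and testis, had 9.92 FPKM in HG and 83.5 FPKM in NG (-2.95 ± 0.05), and 10.8 FPKM in L5. PODXL, a sialomucin, had 1.56 FPKM in HG and 14.3 FPKM in NG (-2.58 ± 0.07). From the actin list, and not among the 30 lowest, TMSB4X, the actin-sequestering thymosin, had 1819 FPKM in HG and 4044 FPKM in NG (-1.15 ± 0.01). The actin list held 0 higher and 2 lower of 40, with a median of -0.10.

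**Figure D3:**
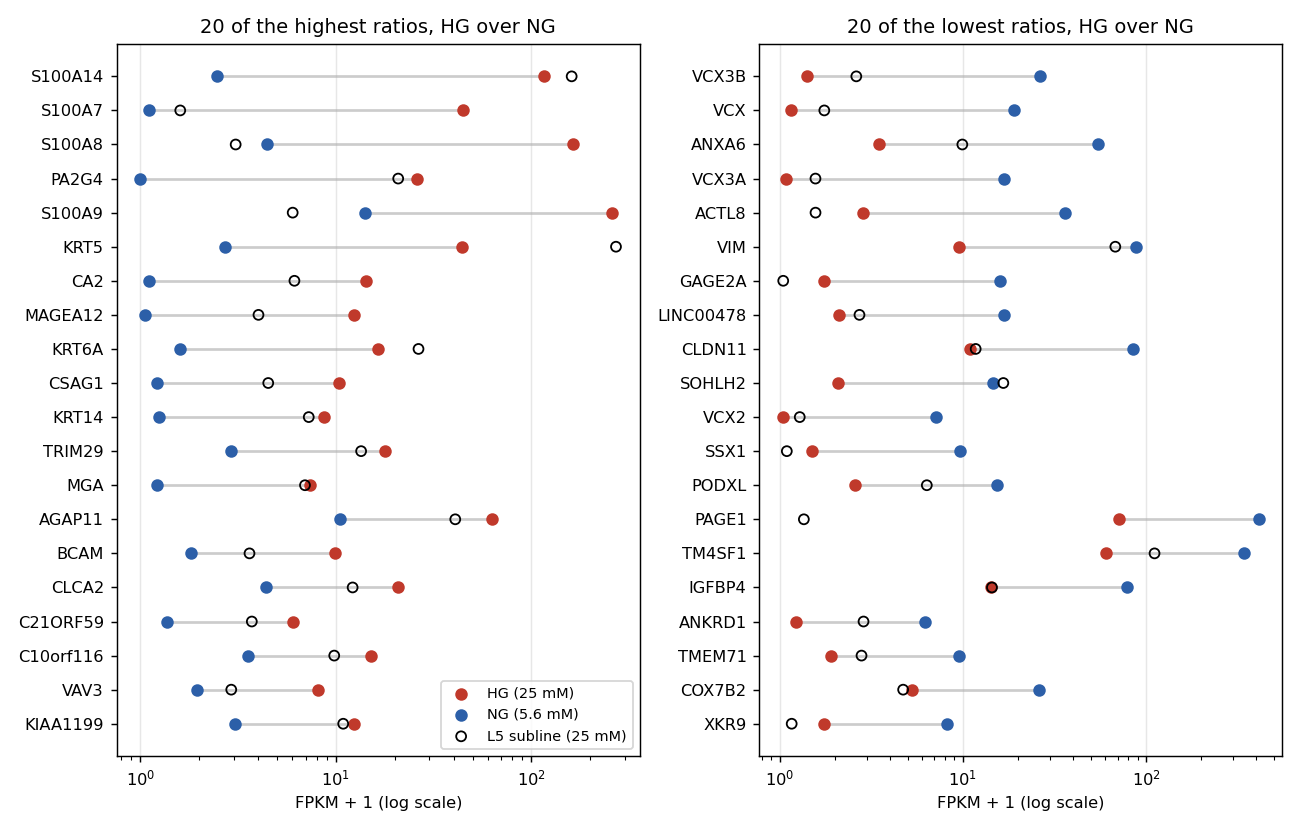
FPKM + 1 (log scale) of 20 genes with the highest ratios (left) and 20 with the lowest ratios (right) among those at 5 FPKM or more with separate intervals, in HG (red), NG (blue) and L5 (open circles), 1 library each. L5 sits near HG for KRT14 and CLDN11, near NG for VIM, and beyond HG for KRT5 and PAGE1.

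Cancer-testis genes of the X chromosome, active in germ cells and many tumours, went both ways. Of 54 listed, 15 were measured, 6 were higher and 7 lower past 2-fold, beside 1.62% and 3.2% of all genes, and 39 stayed under 1 FPKM in both. Of the 15, 5 were measured through HG alone and 6 through NG alone. These 11 entered through the side where they are high, which favours calls, so nothing is read from the count. The median of the measured members was -0.35, but 0.015 with no filter on FPKM and -2.61 over genes at 5 FPKM or more. VCX3B had 0.408 FPKM in HG and 25.3 FPKM in NG (-4.22 ± 0.11), and VCX, VCX2 and VCX3A, at -4.04, -2.77 and -3.96, were lower too. PAGE1 had 70.4 FPKM in HG, 411 FPKM in NG (-2.53 ± 0.04) and 0.356 FPKM in L5. SSX1 had 0.499 FPKM in HG and 8.67 FPKM in NG (-2.69 ± 0.12). In the other direction MAGEA12 had 11.4 FPKM in HG and 0.0602 FPKM in NG (3.55 ± 0.11), and its neighbour CSAG1 had 9.36 FPKM in HG and 0.221 FPKM in NG (3.08 ± 0.35). MAGEA6, named after its values were seen, had 37.0 FPKM in HG and 15.0 FPKM in NG (1.25 ± 0.06), while the closely related MAGEA3 had 61.0 FPKM in HG and 53.5 FPKM in NG (0.19 ± 0.04). Copies of the VCX, GAGE and MAGEA2 genes are nearly identical, so their single values are uncertain. Away from the X chromosome the germ-line gene ACTL8 had 1.85 FPKM in HG and 35.2 FPKM in NG (-3.67 ± 0.09). The 38 measured genes of DNA methylation and chromatin silencing held 0 past 2-fold, with a median of -0.13.

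Lists of genes that take up and burn glucose are given as counts, beside 4.82% of all genes past 2-fold in either direction, and at their sizes counts of 0 to 3 lie near that background. Of 16 measured hexose transporters 0 were higher, 1 was lower and 13 lay below 0, beside 8355 of 13608 genes below 0. Their median was -0.38, or -0.14 with no filter on FPKM and -0.22 with a pseudocount of 5. SLC2A1, the main epithelial glucose transporter, had 46.7 FPKM in HG and 50.4 FPKM in NG (-0.11 ± 0.04). SLC2A9, a urate and hexose carrier, had 5.85 FPKM in HG and 9.46 FPKM in NG (-0.61 ± 0.11), and SLC2A6 stood at -0.60 ± 0.08. The 1 past 2-fold, SLC2A3, measured through NG alone and named after its values were seen, had 0.424 FPKM in HG and 2.46 FPKM in NG. Glycogen genes held 0 of 20 past 2-fold, with PGM1, which interconverts glucose phosphates, at 47.4 FPKM in HG and 33.2 FPKM in NG (0.50 ± 0.04). The polyol pathway and glycation list held 0 of 13, and AKR1B1, which reduces glucose to sorbitol, had 54.0 FPKM in HG and 82.0 FPKM in NG (-0.59 ± 0.04).

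Downstream, the citric acid cycle list held 0 of 40 past 2-fold with a median of -0.09. PDK1, the kinase that shuts pyruvate out of mitochondria, had 8.21 FPKM in HG and 4.32 FPKM in NG (0.79 ± 0.11), and ME3, a mitochondrial malic enzyme, had 2.52 FPKM in HG and 5.37 FPKM in NG (-0.85 ± 0.12). AMPK and mTOR genes, the nutrient sensors, held 0 of 32 past 2-fold (median -0.01), and autophagy and lysosome genes 0 of 34 (median -0.10). Serine and one-carbon genes held 0 of 28 past it, led by PSAT1 of serine synthesis with 34.3 FPKM in HG and 19.2 FPKM in NG (0.80 ± 0.05). Fatty acid oxidation and storage held 1 higher and 2 lower of 36. There G0S2, an inhibitor of the fat-droplet lipase, had 19.9 FPKM in HG and 47.3 FPKM in NG (-1.21 ± 0.08), and the acyl-CoA synthetase ACSL5 had 15.8 FPKM in HG and 34.0 FPKM in NG (-1.06 ± 0.04). In the insulin and IGF list 0 were higher and 2 lower of 30, both IGF-binding proteins. IGFBP4 (chromosome 17, 38599702 to 38613983) had 13.3 FPKM in HG and 78.0 FPKM in NG (-2.47 ± 0.04), with 13.4 FPKM in L5, and IGFBP6 had 11.1 FPKM in HG and 30.6 FPKM in NG (-1.38 ± 0.10).

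Acid and lactate handling held 3 higher (15%) and 1 lower (5%) of 20, beside 1.62% and 3.2% of all genes, with a median of 0.00. The 3, CA2 among them, were measured through HG alone. SLC16A7, the high-affinity monocarboxylate carrier, had 5.02 FPKM in HG and 13.0 FPKM in NG (-1.21 ± 0.10), and SLC16A1, the common lactate carrier, had 175 FPKM in HG and 101 FPKM in NG (0.79 ± 0.02). These carriers of the same family therefore differed in direction.

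AREG, an EGF receptor ligand, was the 1 of 14 EGF family genes past 2-fold (7.14%, beside 4.82% of all genes), with 74.0 FPKM in HG and 25.0 FPKM in NG (1.53 ± 0.06). Its fellow ligands HBEGF, at 23.3 FPKM in HG and 11.8 FPKM in NG (0.92 ± 0.05), and EREG, at 69.4 FPKM in HG and 37.0 FPKM in NG (0.89 ± 0.03), stood just inside it. The family's median was -0.06, close to that of all genes. In the TGF-beta and BMP list 3 were higher and 2 lower of 32, and 1 of the 3 was measured through HG alone. FST, which traps activin (chromosome 5, 52776239 to 52782964), had 161 FPKM in HG and 41.7 FPKM in NG (1.93 ± 0.03), and ID3, a target of BMP signalling, had 5.90 FPKM in HG and 1.63 FPKM in NG (1.39 ± 0.14). The ligand BMP4 had 1.88 FPKM in HG and 11.7 FPKM in NG (-2.14 ± 0.11), and the receptor TGFBR2 had 17.4 FPKM in HG and 45.5 FPKM in NG (-1.34 ± 0.03).

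Genes tied to YAP, a transcriptional coactivator of the Hippo pathway, held 1 higher and 4 lower of 29, and 3 of the 4 were measured through NG alone. F3, tissue factor, had 386 FPKM in HG and 165 FPKM in NG (1.22 ± 0.02). ANKRD1, a classical YAP target, had 0.234 FPKM in HG and 5.24 FPKM in NG (-2.34 ± 0.09), and the receptor kinase AXL had 30.8 FPKM in HG and 63.9 FPKM in NG (-1.03 ± 0.03). Known targets in that list thus lay on both sides. Notch genes held 2 higher and 1 lower of 24, each of the 3 measured through 1 library alone, with a median of -0.08.

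Of 15 measured eicosanoid genes 3 were higher (20%) and 0 lower, beside 1.62% and 3.2% of all genes, with a median of 0.08. PTGS1, the constitutive cyclooxygenase, had 20.1 FPKM in HG and 8.37 FPKM in NG (1.17 ± 0.05), and the terminal synthase PTGES had 42.3 FPKM in HG and 18.6 FPKM in NG (1.14 ± 0.05). The inducible cyclooxygenase PTGS2, named after its values were seen, had 4.34 FPKM in HG and 1.41 FPKM in NG (1.15 ± 0.08). The prostaglandin E2 receptor gene PTGER4, likewise named after its values were seen, had 6.51 FPKM in HG and 2.82 FPKM in NG (0.98 ± 0.11). PTGES2, an alternative synthase, had 41.1 FPKM in HG and 54.7 FPKM in NG (-0.40 ± 0.05). In the interleukin-1 and TNF families IL1B was the 1 of 21 past 2-fold, with 164 FPKM in HG and 60.5 FPKM in NG (1.42 ± 0.03), and IL18 stood at 0.71 ± 0.07. LCN2, the iron-scavenging lipocalin (chromosome 9, 130911350 to 130915734), had 33.8 FPKM in HG and 141 FPKM in NG (-2.03 ± 0.05). C1S, a complement protease, had 8.05 FPKM in HG and 2.06 FPKM in NG (1.56 ± 0.13).

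Of 28 measured genes of antigen presentation 0 were higher and 1 was lower (3.57%, beside 3.2% of all genes). Below 0 lay 20, beside 8355 of 13608 genes, and the median was -0.36, or -0.21 with a pseudocount of 5. CD74, the invariant chain, had 19.6 FPKM in HG and 63.2 FPKM in NG (-1.64 ± 0.06), and 11.3 FPKM in L5. CALR, a chaperone of class I molecules, had 351 FPKM in HG and 554 FPKM in NG (-0.66 ± 0.01), and B2M, their light chain, had 1316 FPKM in HG and 1586 FPKM in NG (-0.27 ± 0.01). HLA gene values are uncertain because alternate contigs carry copies of them.

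Of 26 measured integrin, laminin and collagen genes 0 were higher, 2 were lower (7.69%, beside 3.2% of all genes) and 19 lay below 0, beside 8355 of 13608. Their median was -0.46, or -0.11 with no filter on FPKM and -0.25 with a pseudocount of 5. Of the 2 lower genes, 1 was measured through NG alone. ITGB6, the epithelial activator of TGF-beta, had 3.93 FPKM in HG and 9.58 FPKM in NG (-1.10 ± 0.05), and its partner ITGAV had 21.1 FPKM in HG and 40.4 FPKM in NG (-0.91 ± 0.03). ITGA6 had 85.1 FPKM in HG and 155 FPKM in NG (-0.86 ± 0.02), while its hemidesmosome partner ITGB4 had 71.7 FPKM in HG and 63.8 FPKM in NG (0.16 ± 0.04). Tight junctions held 2 higher and 1 lower of 21. CLDN1 had 173 FPKM in HG and 71.9 FPKM in NG (1.26 ± 0.02), and CXADR, the coxsackie and adenovirus receptor, had 6.22 FPKM in HG and 1.88 FPKM in NG (1.33 ± 0.17), opposite to CLDN11. CDH1, the epithelial cadherin, had 53.2 FPKM in HG and 53.1 FPKM in NG (0.00 ± 0.05).

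Genes of the pericellular sugar coat held 4 higher (12.1%) and 3 lower (9.09%) of 33, beside 1.62% and 3.2% of all genes. Of the 3 lower, 1 was measured through NG alone. KIAA1199, a hyaluronan-degrading protein, had 11.4 FPKM in HG and 2.06 FPKM in NG (2.02 ± 0.13), and the hyaluronan synthase HAS3 had 9.18 FPKM in HG and 2.73 FPKM in NG (1.45 ± 0.07). Of the heparan sulfate enzymes, HS6ST1 had 8.02 FPKM in HG and 2.72 FPKM in NG (1.28 ± 0.08), EXT1 had 60.6 FPKM in HG and 28.9 FPKM in NG (1.05 ± 0.06), and SULF2, which removes sulfate groups, had 1.94 FPKM in HG and 7.59 FPKM in NG (-1.55 ± 0.12). Mucin-related genes were mostly silent, with 5 of 28 measured, 1 higher (20%) and 2 lower (40%). Of these 2 lower, 1 was measured through NG alone. The median of the 5 was -0.94, or -0.01 with no filter on FPKM. AGR2, a mucin-folding isomerase, had 20.8 FPKM in HG and 44.3 FPKM in NG (-1.05 ± 0.08), with 206 FPKM in L5.

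**Figure D4:**
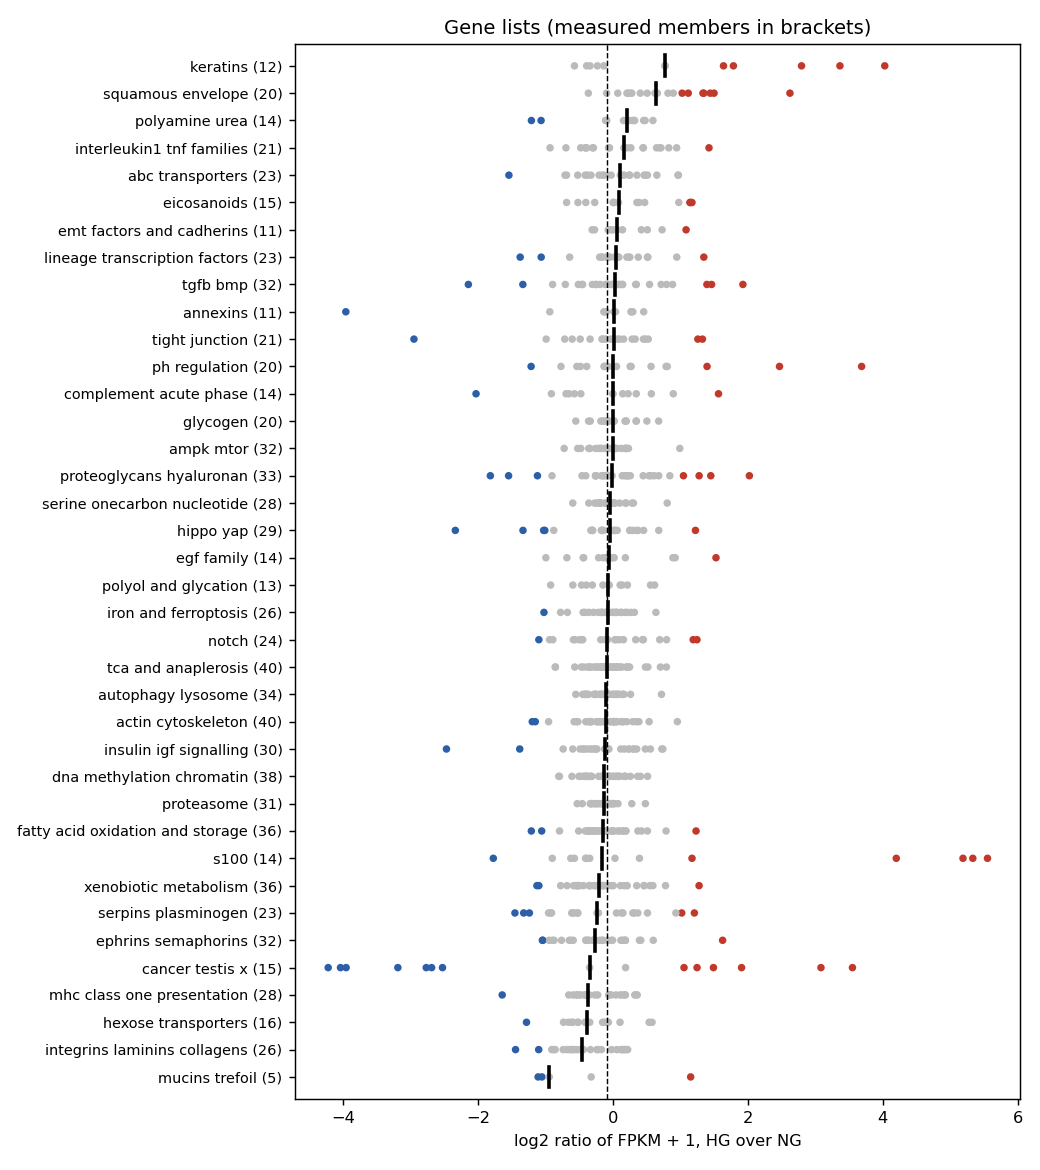
Log2 ratio of FPKM + 1, HG over NG, of every measured member of each gene list; red and blue points are past 2-fold higher and lower in HG, the thick bar is the list's median and the dashed line the all-gene median of -0.09. Keratins (0.77) and squamous layer genes (0.64) have the highest medians. The 5 mucin-related genes (-0.94) have the lowest, and integrins, laminins and collagens (-0.46) lie among the lowest. With no filter on FPKM these medians were 0.13, 0.28, -0.01 and -0.11.

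Ratios also differed by chromosome. On chromosome 6, 471 of 628 genes lay above 0, with a median of 0.24, 20 higher and 5 lower, and its measured genes, cut by position into 3 equal parts, had medians of 0.21, 0.27 and 0.23. Chromosome 9 had the lowest median, -0.22, with 8 higher and 22 lower of 528. Chromosome 15 stood at 0.06 with 14 higher and 7 lower of 447, and the X chromosome at -0.17 with 14 higher and 33 lower of 485. The size of the chromosome 6 shift is well under 2-fold for a typical gene, but genes such as SERPINB1, an elastase inhibitor (42.1 FPKM in HG, 20.3 FPKM in NG, 1.02 ± 0.06), and TFAP2A, an epithelial transcription factor (25.8 FPKM in HG, 12.9 FPKM in NG, 0.95 ± 0.06), lie on it. DNA copy number was not measured here. With each ratio taken relative to the median of its chromosome, 585 genes were past 2-fold, 257 higher and 328 lower (43.9% higher).

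**Figure D5:**
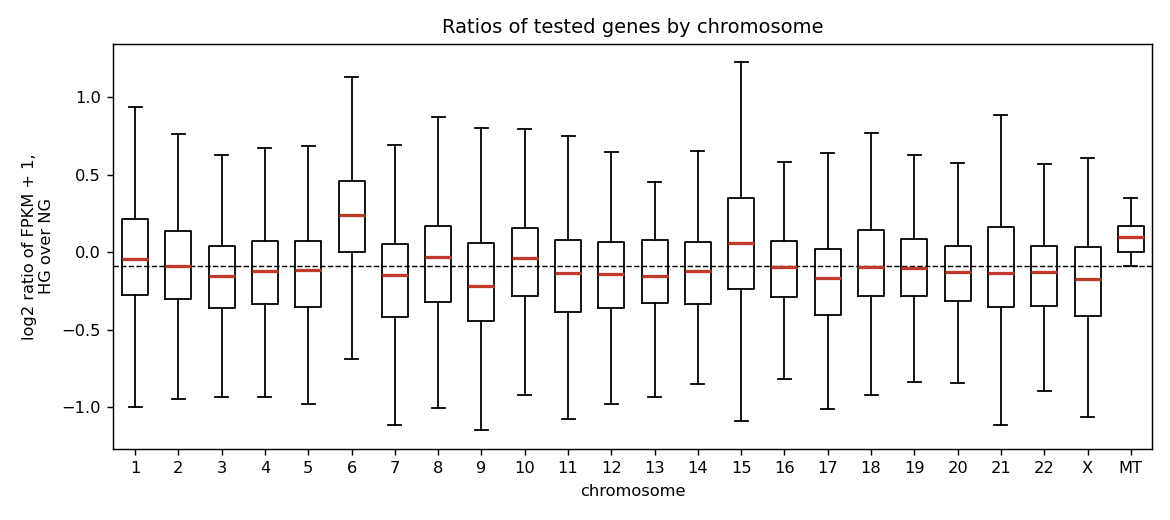
Log2 ratio of FPKM + 1, HG over NG, of measured genes by chromosome; boxes span the quartiles, red lines are medians, whiskers reach the last gene within 1.5 box lengths, and the dashed line is the all-gene median of -0.09. Chromosome 6 (0.24) stands highest and chromosome 9 (-0.22) lowest.

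Isoform shares were compared within genes. Among 4751 genes at 10 FPKM or more in both libraries, 41 (0.863%) had an isoform whose share of the gene's FPKM differed by at least 20 percentage points. NOL12, a nucleolar RNA-binding protein, had 0.0432% of its FPKM in ENST00000468597 in HG and 35.9% in NG, with 12.7% in L5. ACSL5 had 81.6% in ENST00000354273 in HG and 45.8% in NG. Its transcript ENST00000356116, of the same length, had 10.8% in HG and 45.8% in NG. In NG both transcripts were listed at the same 15.6 FPKM, an even split, so the change in their shares is uncertain. In L5 both were listed at 0. TBL2, a relative of transducin beta, had 49.3% in ENST00000424598 in HG and 14.1% in NG, with 21.4% in L5. SMARCD2, a subunit of the SWI/SNF remodeller, had 33.5% in ENST00000323347 in HG and 1.26% in NG, and 0.000436% in L5. REXO2, a mitochondrial oligoribonuclease, had 36.3% in ENST00000544827 in HG and 5.11% in NG, with 30.8% in L5. Such shares are model estimates and carry no replicate check.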

How the data were processed

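Poly-A RNA of 3 cultures was sequenced, 1 library each. The deposited FPKM values and FPKM intervals come from the authors' processing; the submitters' processing notes name BWA, TopHat, Cufflinks and GRCh37, and tool versions are not given in the sources used here. The coverage signal per transcript was deposited beside them, per the file headers. Coverage over FPKM, at 200 bases per fragment, gave the depth: 76.0 M fragments in HG, 47.1 M in NG and 68.7 M in L5. The kit marks strand; whether counting used it is not given in the sources used here, so overlapping genes are uncertain. FPKM were compared as log2 ratios with a pseudocount of 1, which understates differences of low genes. Counting errors took half-widths as 2 SD, recentred on the FPKM, since 85.8% of genes in HG and 87.5% in NG lay in their own interval. Coordinates are on GRCh37, and promoter windows are RefSeq's on GRCh38.p14.

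The members and gene lists were chosen with earlier results of these data known. S100PBP, which is no S100 protein, and a Y-linked gene were taken off their lists afterwards. Named are genes among the 30 highest and 30 lowest ratios at 5 FPKM or more with separate intervals and a longest isoform of at least 300 nt (of 95 and 183 eligible), up to 6 members per list past 2-fold or else the 2 largest, abundant defining members, the largest isoform changes, TXNIP and ARRDC4; exceptions are marked, and a few genes are not reported here. Other pseudocounts, filters, scalings, isoform sums and chromosome centring were tried. The steps were tested on simulated data. Python 3.11.15, pandas 2.3.3 and numpy 2.4.6 were used.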

Additional observations from a re-analysis of the deposited data

How the results depend on the processing

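No paired analysis was possible because each glucose concentration has 1 library; for the same reason no library could be left out. The count of 656 genes past 2-fold became 1214 (354 higher, 860 lower) with a pseudocount of 0.1, 193 (71 higher, 122 lower) with a pseudocount of 5, 365 (122 higher, 243 lower) over genes at 5 FPKM or more, and 1092 (113 higher, 979 lower) with the spike-in RNA set equal. The median ratio of all genes, -0.09, became 0.022 with FPKM scaled to the same sum and -0.45 with the spike-in scaling, where the median log2 ratio of 49 spike-ins was 0.41. Under the other alternatives the count stayed between 556 and 657. With the spike-in scaling the medians of the polyamine (-0.17), eicosanoid (-0.19) and interleukin-1 and TNF (-0.27) lists were below 0, and those of keratins (0.43) and squamous layer genes (0.17) above it. The keratin median was 0.13 and the squamous median 0.28 with no filter on FPKM. The S100 median ran between -0.48 and 0.16. Median and mean had opposite signs for the S100, tight junction, annexin, glycogen, proteoglycan and EGF lists. Of the 60 genes with the largest eligible ratios, all kept their direction under every alternative. All 60 also stayed past 2-fold, except that 55 did with a pseudocount of 5 and 59 with gene IDs of the same symbol summed. In the latter PA2G4 no longer passed. Their selection already required 5 FPKM, separate intervals and an isoform of at least 300 nt. The alternatives that changed only such filters could therefore not move these genes, and nothing is read from them. HG was sequenced more deeply than NG, and intervals cover counting error only.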

Other observations

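Further lists are given as counts in HG against NG, beside 4.82% of all genes past 2-fold, 1.62% higher and 3.2% lower. Proteasome genes held 0 of 31 past 2-fold, with 26 below 0, beside 8355 of 13608 genes, and a median of -0.14. Drug-metabolising enzymes held 1 higher and 2 lower of 36, among them GSTP1, the main epithelial glutathione transferase, with 51.6 FPKM in HG and 114 FPKM in NG (log2 ratio -1.13 ± 0.05). The 1 higher enzyme was measured through HG alone, and 1 of the 2 lower through NG alone. ABC transporters held 0 higher and 1 lower of 23, the organic anion exporter ABCC3, with 1.24 FPKM in HG and 5.54 FPKM in NG (-1.54 ± 0.14). The drug exporter ABCG2 had 11.8 FPKM in HG and 5.58 FPKM in NG (0.96 ± 0.14). Iron and ferroptosis genes held 0 higher and 1 lower of 26, with the ferritin light chain FTL at 429 FPKM in HG and 736 FPKM in NG (-0.78 ± 0.02).

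Polyamine and urea cycle genes held 0 higher and 2 lower of 14, yet had a median of 0.21, which was -0.17 with the spike-in RNA set equal. Of the 2 lower, 1 was measured through NG alone. OAT, ornithine aminotransferase, had 304 FPKM in HG and 201 FPKM in NG (0.59 ± 0.02), and ODC1, the first polyamine enzyme, had 182 FPKM in HG and 146 FPKM in NG (0.32 ± 0.02). Of the lineage transcription factors 1 was higher and 2 were lower of 23, and 1 of the 2 was measured through NG alone. SOX9, a factor of bile duct cells, had 4.44 FPKM in HG and 10.4 FPKM in NG (-1.06 ± 0.06), opposite in direction to TP63. Ephrin and semaphorin genes held 1 higher and 2 lower of 32 (median -0.26), with the axon guidance ligand SEMA3A at 8.39 FPKM in HG and 17.1 FPKM in NG (-0.95 ± 0.19). The 1 higher gene of that list was measured through HG alone, and 1 of the 2 lower through NG alone. HOX genes were almost silent, with 2 of 39 measured.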
